A study of Mus musculus with 6 samples.

Results

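The 60S assembly and nucleolar factors described here are 38 mouse genes whose protein products build the large subunit of the ribosome or make up the nucleolus in which most of that work is done. They were chosen by symbol, with earlier results of these data known, and all 38 were found among the 19233 genes of the deposited table. The study sequenced RNA from polysome fractions, the part of a cell lysate that holds mRNAs carrying several ribosomes. The cells were RAW264.7, a mouse macrophage-like line from a male, titled M2, that is, alternatively polarized. One group of 3 libraries came from cells given BMH-21 at 500 nM for 24 h, starting 24 h after polarization, and the other group of 3 came from cells given DMSO, the vehicle. BMH-21 is a small molecule that blocks RNA polymerase I, the enzyme that transcribes the large ribosomal RNA precursor. Both groups share the cell line and the polarization. The labels describe the treatment for macrophages grown from bone marrow, with IL-4 or with LPS and interferon gamma, so which agent polarized the line is not given there. Nothing in the labels says that libraries of a group came from different cultures, and p-values may therefore reflect only technical spread.

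As background, the large subunit starts in the nucleolus as a long precursor RNA that folds while assembly factors join it. Scaffold proteins and RNA helicases hold and remodel the early particle, nucleases cut away the spacers, and GTPases and AAA ATPases then strip factors off so that the particle can leave the nucleus. Many of these proteins are needed for growth in dividing cells, and nucleolin and nucleophosmin are among the most abundant proteins of the nucleolus.

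Values are given as FPKM, a unit read from the values themselves, that is, fragment counts scaled to library size and to gene length. Which length was used is not stated. Levels and ratios between genes therefore depend on the annotation. Wdr12, for example, has 11955 annotated exon bases and a coding length of 1269 bases. The FPKM ratio of the groups for a single gene does not depend on the length. Fold changes are BMH-21 minus DMSO on the log2(FPKM + 1) scale, which understates the change of genes at a few FPKM or less. A gene was called when its limma p-value, adjusted by the Benjamini-Hochberg method over 9748 genes, was under 0.05. The table holds shares of a library from bulk samples, so fewer cells and less RNA per cell cannot be told apart. The share of an mRNA that sat on polysomes cannot be told apart from its total amount either, since no unfractionated RNA was used here.

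Estimated depth, from the steps between low values, ranged over the DMSO libraries from 21610000 to 24070000 reads, and over the BMH-21 libraries from 18770000 to 22560000. Libraries of a group correlated at 0.997 or more across genes tested, and libraries of different groups at 0.964 or less. Of 8 macrophage markers, 7 had a mean of at least 1 FPKM in both groups, with Mertk close to 0. The macrophage markers summed to 10450 to 10849 FPKM in DMSO and to 18048 to 19264 FPKM in BMH-21, most of it Lyz2. The means of 4 of the 8 were lower in BMH-21 (Csf1r 56.2 and 49.2 FPKM, Adgre1 40.7 and 22.7, Fcgr1 36.4 and 17.0, Mertk 0.136 and 0.0444), and those of Lyz2, Cd68, Spi1 and Itgam were higher. Of 4 markers of the M2 state 2 were in the table, Arg1 and Mrc1, and their summed level was 5.34 to 5.67 FPKM in DMSO and 1.44 to 1.75 FPKM in BMH-21. The part of these marker differences in the members' changes was not tested. Markers of T cells were not analysed here, and in every library the B cell marker in the table was at 0.0608 FPKM or less and the fibroblast markers summed to 0.0648 FPKM or less. Epithelial markers set DMSO replicate 3 apart from its group. All 3 of them (Krt8, Krt18 and Epcam) were in the table, and their sum was 0 FPKM in DMSO replicate 1, 0.088 FPKM in DMSO replicate 2 and 9.23 FPKM in DMSO replicate 3, against 10.5 to 13.5 FPKM in BMH-21. For the 38 members DMSO replicate 3 lay with its group, with a summed level of 1424 FPKM against 1427 and 1419 FPKM in the other DMSO libraries and 1092 to 1116 FPKM in BMH-21.

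Most of the assembly factors had lower FPKM in the polysome fractions after BMH-21, with a median change over the members of -34.4% in mean FPKM. The same median over all genes tested was -17.8%. All 38 members passed the filter of at least 1 FPKM in at least 3 samples, and 31 were called lower, 4 were called higher and 3 were not called. Nvl passed through the DMSO libraries alone. The called-lower share was 81.6% of the members, and 58.4% of all genes tested were called lower in the same comparison. The 4 called higher (Mak16, Nop16, Nip7 and Rsl24d1) are 10.5% of the members, where 19.9% of all genes tested were called higher. In 30 members every BMH-21 library lay below every DMSO library, which held for 59.5% of all genes tested, and in 4 members every BMH-21 library lay above, which held for 20.3%. Large falls were not frequent. A called fall to 50% of the DMSO mean or less was seen in 3 members (Ncl, Ddx21 and Rrp1b), which is 7.89%, and in 10.7% of all genes tested.

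The median fold change was -0.52 over the members and -0.23 over all genes tested, a distance of -0.29. The members' changes ran from -1.09 to 0.44, and 30 of the 38 lay below the median of all genes. Their share of all FPKM was 0.415% to 0.420% in DMSO and 0.292% to 0.301% in BMH-21, so the ranges did not overlap. Other ways of scaling the libraries moved the split of calls. Median-ratio scaling raised the median of all genes by 0.24 and called 3442 of all genes lower and 3724 higher. Under it 25 members were lower and 7 higher, and the members' median lay -0.28 from that of all genes. Without DMSO replicate 3, 31 members were called lower and 3 higher, with a median of -0.51. Of all genes, 5511 (56.5%) were then called lower and 1816 higher, with a median of -0.23.

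**Figure D1:**
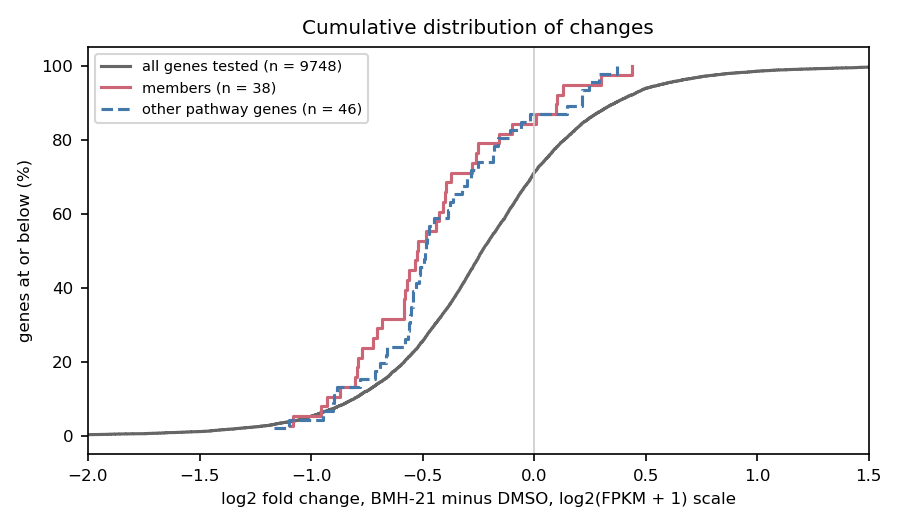
Cumulative share of genes (vertical axis, percent) at or below each log2 fold change (horizontal axis, BMH-21 minus DMSO, log2(FPKM + 1) scale, drawn from -2 to 1.5) for all 9748 genes tested, the 38 members and 46 other genes of the pathway. The curve of the members lies to the left of the curve of all genes over most of the range, with medians of -0.52 and -0.23. At the largest falls the curve of all genes lies to the left. No member fell below -1.09, while all genes ran down to -3.49.

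Promoter sequence of the members was looked at as a description, since most of them fell, as did 58.4% of all genes tested. RefSeq promoters on GRCm38.p6, from 250 bases before to 50 bases after an annotated start, were matched for 31 members. Mak16, Npm1, Bop1, Rpf1, Rrs1, Gnl2 and Gnl3l were not matched. A pair of motifs was searched on both strands, and both were chosen with the values of the members known. The E-box CACGTG, which reads the same on both strands, is bound by MYC with MAX and by other proteins of the same class. CCGGAAG, or CTTCCGG on the other strand, is the core bound by ETS family factors. The E-box and the ETS core cannot overlap each other. The windows below hold a motif in members that fell (Nop2, Pes1, Ddx27, Noc2l and Surf6), in members that rose (Nip7 and Rsl24d1) and in Grwd1, which was not called. They are written 5′ to 3′ on the gene's own strand, with the motif in capitals.
Nop2 E-box, chr6:125131811-125131840, plus strand: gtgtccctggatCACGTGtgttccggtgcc
Nop2 ETS, chr6:125131834-125131863, plus strand: cggtgccgcggCCGGAAGaggcggggcgtt
Pes1 E-box, chr11:3963965-3963994, plus strand: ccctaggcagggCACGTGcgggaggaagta
Ddx27 ETS, chr2:167015300-167015329, plus strand: actcgctacgtCCGGAAGtggctgcttctt
Noc2l ETS, chr4:156236002-156236031, plus strand: gcattctgggcCCGGAAGtgcggcgcacgc
Surf6 ETS, chr2:26902877-26902906, minus strand: cgcataagataCTTCCGGcggggtcacgcc
Nip7 ETS, chr8:107056763-107056792, plus strand: gctttcggtccCCGGAAGtccgccacggta
Rsl24d1 ETS, chr9:73113415-73113444, plus strand: tcagggactcgCTTCCGGcgactaggaagt
Grwd1 ETS, chr7:45830810-45830839, minus strand: ggaggtgaaacCCGGAAGtgacgctctcac

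The ETS core was in the promoters of 15 of the 31 members (48.4%), against 23.2% of 7703 genes tested with a promoter and 9.9% of 27025 promoter-matched genes in all. The E-box was in 7 of 31 (22.6%), against 12.6% and 8.1%. Members with and without the motifs were called as follows. Of the 15 with the ETS core 11 were called lower, 2 higher (Nip7 and Rsl24d1) and 2 neither, with a median change of -0.41, and of the 16 without it 14 were lower, 1 higher and 1 neither, with a median of -0.53. Of the 7 with the E-box, 6 were called lower (Mdn1, Nop2, Rpf2, Pes1, Mybbp1a and Nle1) and Grwd1 was not called, with a median of -0.56, and of the 24 without it 19 were lower, 3 higher and 2 neither, with a median of -0.45. The E-box count rests on bases after the start: with only the 250 bases before it, a window chosen after seeing the data, 2 of 31 members (6.5%) held an E-box and 10.6% of genes tested did. On that window the ETS core was in 9 of 31 members (29.0%) and in 18.0% of genes tested. A C followed by 4 pyrimidines at the start itself, the terminal oligopyrimidine pattern of many ribosomal protein mRNAs, was in 0 of 31 members and in 3.0% of genes tested. A match is a run of letters only, and binding was not measured.

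The members are given by role from here on. Each role holds few members, and 58.4% of all genes tested were called lower. Nucleolar chaperones and structural proteins fell in 3 of 4 members. Ncl encodes nucleolin, an abundant RNA-binding protein of the nucleolus (chr1:86344719-86359400, minus strand, GENCODE M21 on GRCm38). Its level was 56.3, 57.2 and 54.8 FPKM in the DMSO libraries and 25.8, 26.8 and 25.3 FPKM in the BMH-21 libraries. The groups lay far apart, with DMSO replicate 3 among the high values. The mean fell from 56.1 ± 1.2 to 26.0 ± 0.74 FPKM (SD, n = 3 each), which is -1.08 on the log2(FPKM + 1) scale (SE 0.04, limma adjusted p = 7.77e-09). A miRNA gene overlaps the exons of Ncl and 3 snoRNA genes lie within its bounds, so what was counted for it is partly uncertain.

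Npm1, which encodes nucleophosmin, a chaperone of histones and ribosomal proteins, had the highest FPKM of the members. Its level was 373, 374 and 380 FPKM in DMSO and 232, 244 and 226 FPKM in BMH-21. No library of either group came near the other group. The change was -0.68 (SE 0.04, limma adjusted p = 1.82e-07), from a mean of 376 to 234 FPKM. Npm1 alone made up 26.1% to 26.7% of the members' summed FPKM in DMSO and 20.7% to 21.8% in BMH-21.

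Npm3, a smaller relative of Npm1 in the nucleoplasmin family, was not called. It stood at 69.7, 59.6 and 63.1 FPKM in DMSO and at 66.4, 70.1 and 69.0 FPKM in BMH-21. The groups overlapped, through DMSO replicate 1. The mean was 64.1 and 68.5 FPKM, a change of 0.10 (SE 0.06, limma adjusted p = 0.137). Without DMSO replicate 1 Npm3 was called higher, at 0.16 (limma adjusted p = 0.0112), and its call and sign also depended on the scaling. With coding length and GC adjusted for it was called lower (-0.11, limma adjusted p = 0.0407). The Npm1 to Npm3 ratio within a library was 5.35, 6.27 and 6.03 in DMSO and 3.49, 3.47 and 3.27 in BMH-21. The ratio was thus lower in every BMH-21 library, by -0.78 on the log2 scale (exact 2-sided permutation p = 0.1, the smallest that 3 against 3 can give, and 0.175 adjusted over 7 pairs). Mybbp1a, which encodes a nucleolar protein that binds MYB, fell from 7.03 to 4.98 FPKM (-0.43), a call that was lost under quantile normalization (-0.11).

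The PeBoW complex, which binds the early particle and is needed to process the spacer ITS2, was called lower in all 3 subunits, but not to a like extent. Pes1 (chr11:3963975-3980004, plus strand), which encodes pescadillo, was at 40.5, 40.0 and 39.7 FPKM in DMSO and at 20.5, 20.0 and 19.9 FPKM in BMH-21. The spread within a group was under 1 FPKM. The mean fell from 40.1 ± 0.43 to 20.1 ± 0.33 FPKM (SD, n = 3 each), with a change of -0.96 (limma adjusted p = 1.1e-08).

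Bop1, whose protein sits between the other subunits, was at 23.9, 22.4 and 22.7 FPKM in DMSO and at 12.4, 12.2 and 11.8 FPKM in BMH-21. It fell from 23.0 to 12.1 FPKM on average, by -0.87 (limma adjusted p = 5.3e-08). Wdr12, the WD-repeat subunit, was at 3.80, 3.81 and 3.79 FPKM in DMSO and at 3.02, 3.08 and 2.98 FPKM in BMH-21. It too was separated without overlap, yet its mean went only from 3.80 to 3.03 FPKM (-0.25, limma adjusted p = 0.000657). That call was lost under median-ratio scaling (-0.02) and upper-quartile scaling (-0.01), and the sign turned under quantile normalization (0.08).

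Ratios within a library show the unequal change of the complex. In FPKM, whose level depends on the gene length used, Wdr12 stood at 0.0937, 0.0953 and 0.0956 of Pes1 in DMSO. It stood at 0.147, 0.154 and 0.150 of Pes1 in BMH-21. Every BMH-21 library was higher, by 0.66 on the log2 scale (exact permutation p = 0.1, 0.175 adjusted). The Bop1 to Pes1 ratio also did not overlap, but moved little, from a mean of 0.574 to 0.601.

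**Figure D2:**
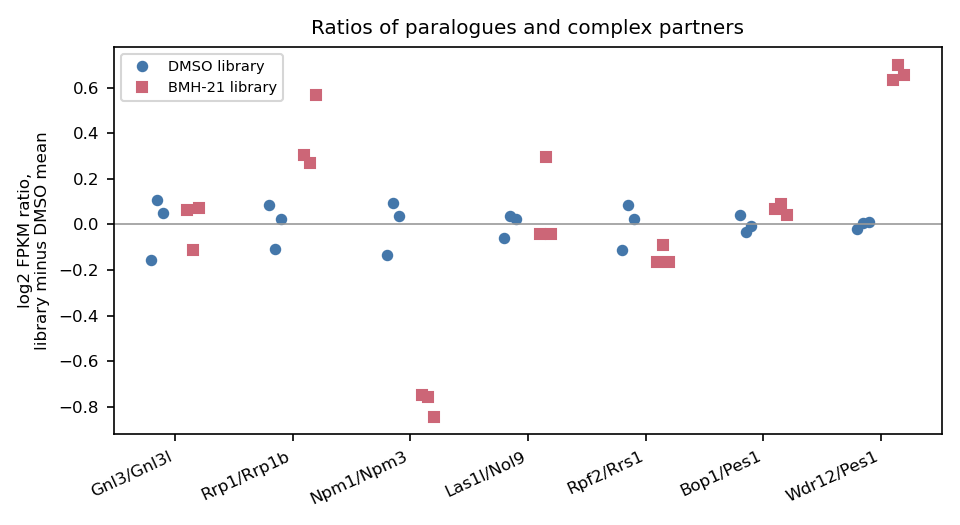
Log2 of the within-library FPKM ratio of 7 pairs of members (paralogues or subunits of 1 complex), minus the DMSO mean of that pair, with 1 point per library (blue circles DMSO, red squares BMH-21). Npm1 to Npm3 was lower in all BMH-21 libraries (mean ratios 5.88 and 3.41), Wdr12 to Pes1, Rrp1 to Rrp1b and Bop1 to Pes1 were higher in all of them, and the other pairs overlapped.

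All 3 RNA helicases fell. Ddx21, a DEAD-box helicase that acts on nascent ribosomal RNA and on snoRNAs, had the largest fall of the 38 members, narrowly ahead of Ncl (chr10:62580251-62602281, minus strand). Its level was 26.4, 26.9 and 25.6 FPKM in DMSO and 12.6, 11.4 and 11.3 FPKM in BMH-21. The groups were separated by more than the whole range of either. The mean fell from 26.3 ± 0.66 to 11.8 ± 0.74 FPKM (SD, n = 3 each), a change of -1.09 (SE 0.05, limma adjusted p = 3.15e-08). Under quantile normalization Ncl fell more (-0.97 against -0.87 for Ddx21), as it did without BMH-21 replicate 2 (-1.10 against -1.07). Ddx27, a DEAD-box helicase that works with the PeBoW complex, fell from 14.9 to 8.35 FPKM (-0.77). Ddx18, another nucleolar DEAD-box helicase, fell from 8.75 to 5.81 FPKM (-0.52).

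The Brix-domain proteins, RNA-binding scaffold proteins of the early particle, fell in 5 of 6 members counted with their partners. Ppan (chr9:20888175-20892178, plus strand) changed most. It stood at 21.1, 21.1 and 22.0 FPKM in DMSO and at 11.2, 10.3 and 10.8 FPKM in BMH-21, with no overlap. The mean fell from 21.4 to 10.8 FPKM (-0.93, limma adjusted p = 4.6e-08). Within Ppan lie 2 snoRNA genes. Rpf1 fell from 15.9 to 9.28 FPKM (-0.72). Brix1 fell from 28.5 to 21.8 FPKM (-0.37), a call that was lost under median-ratio scaling (-0.09).

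Rpf2 and Rrs1 form a pair that brings the 5S ribonucleoprotein to the particle. Rpf2 was at 25.7, 27.2 and 27.4 FPKM in DMSO and at 17.6, 17.4 and 18.3 FPKM in BMH-21. It fell from 26.7 to 17.8 FPKM on average (-0.56, limma adjusted p = 1.03e-06). Rrs1 was at 61.9, 57.1 and 60.3 FPKM in DMSO and at 44.2, 41.5 and 45.9 FPKM in BMH-21. It fell from 59.8 to 43.8 FPKM on average (-0.44, limma adjusted p = 1.57e-05). Both genes were separated between the groups. Their ratio, 0.448 ± 0.031 in DMSO and 0.406 ± 0.012 in BMH-21 (SD, n = 3 each), overlapped (exact permutation p = 0.2, 0.28 adjusted).

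Mak16, which binds Rpf1 in the early particle, went the other way and had the largest rise of the 38 (chr8:31159463-31168764, minus strand). Its level was 48.7, 48.9 and 45.6 FPKM in DMSO and 66.1, 65.5 and 63.6 FPKM in BMH-21. All BMH-21 libraries lay above all DMSO libraries. The mean rose from 47.7 to 65.1 FPKM (0.44, SE 0.04, limma adjusted p = 4.77e-06), and the call held in all 16 alternative settings. Mak16 shares 882 exon bases with Tti2 on the opposite strand. Tti2 was at 2.64 FPKM in DMSO and 2.22 FPKM in BMH-21, and the counting is not stated to use strand.

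Both rRNA methyltransferases fell. Nop2, which methylates a cytosine of the large-subunit RNA, was at 11.2, 10.7 and 10.2 FPKM in DMSO and at 6.86, 6.81 and 6.73 FPKM in BMH-21. The BMH-21 values were tighter than the DMSO values and well below them. The mean fell from 10.7 to 6.80 FPKM (-0.58, limma adjusted p = 1.47e-06). The E-box and the ETS core shown for Nop2 both lie before its annotated start. Ftsj3, a ribose methyltransferase, fell from 6.16 to 4.11 FPKM (-0.48), a call that was lost under quantile normalization (-0.16).

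**Figure D3:**
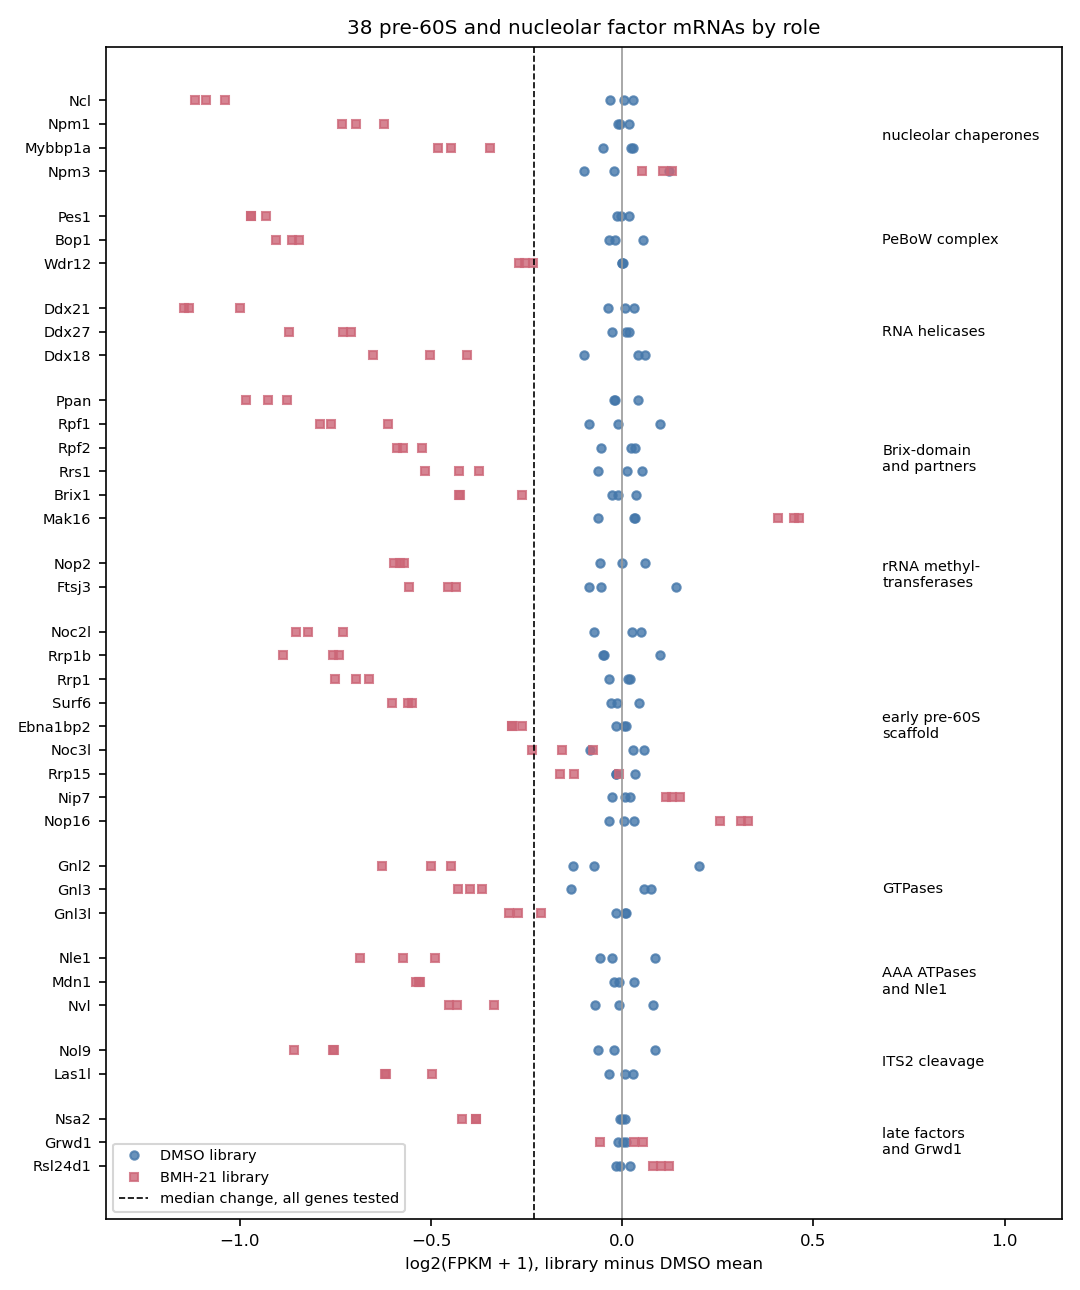
Each of the 38 members by role, with 1 point per library (blue circles DMSO, red squares BMH-21) showing log2(FPKM + 1) minus the DMSO mean of that gene, and a dashed line at the median change of all genes tested (-0.23). The BMH-21 points lie left of the DMSO points in 30 members, right of them in Mak16, Nop16, Nip7 and Rsl24d1, and overlap them in Npm3, Rrp15, Grwd1 and Noc3l.

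The 9 other scaffold factors of the early particle were mixed, with 6 called lower, 2 higher and 1 not called, and a median change of -0.28. Among those that fell, Noc2l, a nucleolar complex protein also known to inhibit histone acetylation, went from 42.3 to 23.8 FPKM (-0.80). Surf6 fell from 13.4 to 8.71 FPKM (-0.57). Ebna1bp2 fell from 57.3 to 47.0 FPKM (-0.28), a call that was lost under median-ratio scaling (0.01).

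Rrp1 and Rrp1b are paralogues of the same assembly factor. Rrp1 was at 81.3, 80.9 and 78.2 FPKM in DMSO and at 49.1, 47.2 and 50.3 FPKM in BMH-21. It fell from 80.1 to 48.8 FPKM on average (-0.70, limma adjusted p = 1.25e-07). Rrp1b, with far lower FPKM, was at 3.72, 4.24 and 3.73 FPKM in DMSO and at 1.93, 1.90 and 1.65 FPKM in BMH-21. Its mean fell from 3.90 to 1.82 FPKM (-0.79, limma adjusted p = 1.74e-06). Both paralogues fell without overlap. The Rrp1 to Rrp1b ratio was 21.8, 19.1 and 21.0 in DMSO and 25.4, 24.9 and 30.5 in BMH-21, higher in every BMH-21 library (0.38 on the log2 scale, exact permutation p = 0.1, 0.175 adjusted). With 1 FPKM added to both genes the difference shrank to 0.09.

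Nop16 and Nip7, small proteins of the early particle, rose. Nop16 (chr13:54584185-54590090, minus strand), with the higher FPKM of them, was at 120, 116 and 122 FPKM in DMSO and at 143, 150 and 148 FPKM in BMH-21. Its mean rose from 119 to 147 FPKM (0.30, limma adjusted p = 4.96e-05). The call of Nop16 held in all 16 alternative settings, but with coding length and GC adjusted for the change was 0.082 (limma adjusted p = 0.0411). Nip7 was at 33.4, 33.7 and 32.7 FPKM in DMSO and at 37.1, 36.5 and 36.1 FPKM in BMH-21. All BMH-21 values were above all DMSO values for both genes. The rise of Nip7 was small, from 33.3 to 36.6 FPKM (0.13, limma adjusted p = 0.00771). With coding length and GC adjusted for, Nip7 was called lower (-0.09, limma adjusted p = 0.0397). With equal column totals it was not called (0.01, limma adjusted p = 0.759).

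Rrp15 and Noc3l lay at the edge of the test. Rrp15 was at 31.2, 32.4 and 31.2 FPKM in DMSO and at 28.1, 31.5 and 28.9 FPKM in BMH-21, with means of 31.6 and 29.5 FPKM. The groups overlapped through BMH-21 replicate 2, and the change of -0.10 was not called (limma adjusted p = 0.0823). Without BMH-21 replicate 2 Rrp15 was called lower (-0.14, limma adjusted p = 0.013). It was also called lower with equal column totals (-0.22, limma adjusted p = 0.00182) and with length and GC adjusted for (-0.14, limma adjusted p = 0.0124). Under median-ratio scaling Rrp15 was called higher (0.19, limma adjusted p = 0.00892), as it was under upper-quartile scaling (0.21, limma adjusted p = 0.00373). Noc3l, a partner of the Noc complexes, was at 1.87, 1.93 and 1.66 FPKM in DMSO and at 1.39, 1.67 and 1.52 FPKM in BMH-21. It was called lower by a narrow margin (means 1.82 and 1.53 FPKM, -0.16, limma adjusted p = 0.0496) although the groups overlapped. The call of Noc3l was lost in 11 of the 15 alternative settings that tested it, and its sign turned under median-ratio (0.03), upper-quartile (0.04) and quantile (0.11) scaling.

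All 3 nucleolar GTPases fell. Gnl3 encodes nucleostemin, known from stem cells and proliferating cells, and stood at 14.3, 16.7 and 16.5 FPKM in DMSO and at 12.0, 11.5 and 11.8 FPKM in BMH-21. DMSO replicate 1 was the low value of its group and still above every BMH-21 library. The mean fell from 15.8 to 11.8 FPKM (-0.40, limma adjusted p = 0.000126), and 3 snoRNA genes lie within Gnl3. Gnl3l, its paralogue, was at 1.75, 1.70 and 1.75 FPKM in DMSO and at 1.26, 1.36 and 1.23 FPKM in BMH-21. It fell from 1.73 to 1.28 FPKM on average (-0.26, limma adjusted p = 0.00148). Median-ratio scaling ended the call for both, at -0.12 and -0.08.

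The Gnl3 to Gnl3l ratio was 9.14 ± 0.86 in DMSO and 9.18 ± 0.65 in BMH-21 (SD, n = 3 each), with overlapping libraries (exact permutation p = 0.8). Gnl2, the GTPase that checks the particle before export, fell from 4.82 to 3.03 FPKM (-0.53), and its call was lost under quantile normalization (-0.20).

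The AAA ATPases and the anchor of Mdn1 fell as well. Mdn1, also called midasin, is a very large ATPase that pulls factors off the particle. It was at 1.96, 1.86 and 1.88 FPKM in DMSO and at 0.998, 1.01 and 1.01 FPKM in BMH-21. Those values are close to 1 FPKM, where the added pseudocount shrinks a fold change. The mean fell by 47.1%, from 1.90 to 1.01 FPKM, and the log2(FPKM + 1) change was -0.53 (limma adjusted p = 8.11e-06). Nvl, an AAA ATPase of the nucleolus, fell from 1.46 to 0.855 FPKM (-0.41). Nle1, the WD-repeat protein on which Mdn1 acts, fell from 14.9 to 9.61 FPKM (-0.58).

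Both members that act in ITS2 cleavage fell. Las1l, the endonuclease, was at 2.68, 2.63 and 2.52 FPKM in DMSO and at 1.35, 1.56 and 1.35 FPKM in BMH-21. It fell from 2.61 to 1.42 FPKM on average (-0.58, limma adjusted p = 7.77e-06). Nol9, the polynucleotide kinase that acts with Las1l, was at 7.23, 6.65 and 6.42 FPKM in DMSO and at 3.59, 3.28 and 3.60 FPKM in BMH-21. It fell from 6.77 to 3.49 FPKM (-0.79, limma adjusted p = 7.05e-07). Both were separated between groups, and the Las1l to Nol9 ratio, 0.386 ± 0.014 and 0.408 ± 0.057 (SD, n = 3 each), overlapped (exact permutation p = 0.8). By the length of 1 of its transcripts (2581 bases), Las1l rests on an estimated 65 reads in the library with the fewest. Over all its annotated exons (8143 bases), the kind of length used to estimate depth, the estimate would be higher.

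The 3 late factors went 3 ways. Nsa2, which joins the particle late in the nucleus, fell from 42.2 to 31.8 FPKM (-0.39), a call that was lost under upper-quartile scaling (-0.08). Nsa2 shares 1590 exon bases with Fam169a on the opposite strand, which was at 0.0651 FPKM in DMSO and 0.0167 FPKM in BMH-21. Rsl24d1, which holds the place later taken by Rpl24, was at 98.3, 101 and 99.0 FPKM in DMSO and at 108, 107 and 105 FPKM in BMH-21. It rose slightly but without overlap, from 99.4 to 107 FPKM (0.10, limma adjusted p = 0.0236). Its call was lost without DMSO replicate 1, DMSO replicate 3 or BMH-21 replicate 1, with limma adjusted p between 0.0514 and 0.0732, and 226 of its exon bases are shared with Gm20509 on the same strand. The call was also lost under quantile normalization (limma adjusted p = 0.103), and the sign turned with equal column totals (-0.02). With length and GC adjusted for, Rsl24d1 was called lower (-0.14, limma adjusted p = 0.00379). Grwd1, the chaperone that carries Rpl3 to the particle, was at 12.4, 12.2 and 12.3 FPKM in DMSO and at 11.8, 12.8 and 12.6 FPKM in BMH-21. The groups overlapped on both sides, and the change of 0.01 was not called (SE 0.04, limma adjusted p = 0.874, means 12.3 and 12.4 FPKM). Under median-ratio scaling Grwd1 was called higher (0.28).

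**Figure D4:**
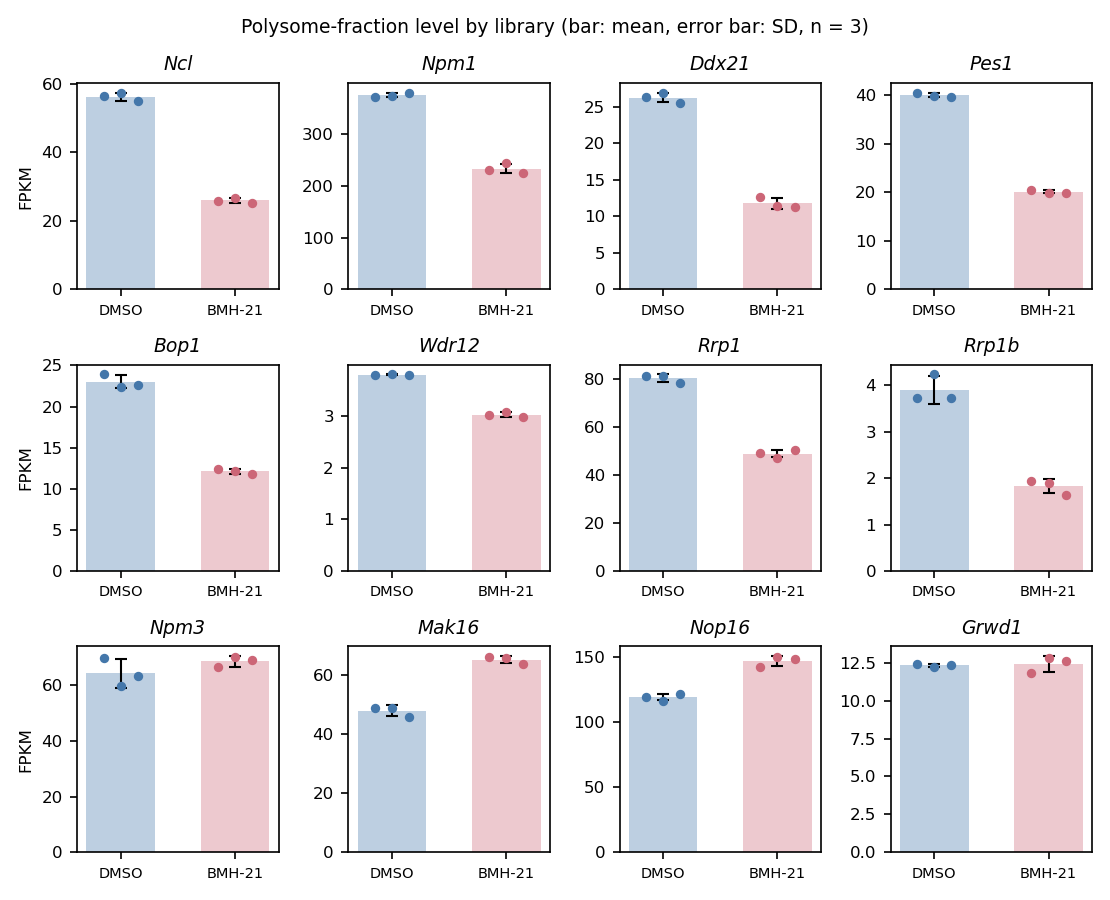
FPKM of selected members in the DMSO (blue) and BMH-21 (red) libraries, with a point per library, bars for the mean of 3 libraries and error bars for the SD, each panel with its own axis from 0. The panels run from large falls (Ncl, 56.1 to 26.0 FPKM) through the small fall of Wdr12 to the rises of Mak16 and Nop16 and the overlapping groups of Npm3 and Grwd1.

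The members that rose had short coding sequences. All 4 called higher have coding sequences under 1000 bases (492 in Rsl24d1, 540 in Nip7, 543 in Nop16 and 888 in Mak16). Of 10 members under 1000 bases 4 were lower (Npm1, Rpf2, Nsa2 and Ebna1bp2), 4 higher and 2 not called, with a median change of -0.0011. Of 28 members at 1000 bases or more 27 were lower and Grwd1 was not called, with a median of -0.57. All genes tested showed the same order: 42.2% of 3250 genes under 1000 bases and 68.7% of 5971 longer genes were called lower, and 33.7% and 11.9% were called higher. The 1000-base division was chosen after the values had been seen. Across members, change and coding length had a Spearman rho of -0.50 and a Pearson r of -0.51 (n = 38 genes from the same 6 libraries), and across genes tested the rho was -0.28 (n = 9221). The DMSO level had a rho of 0.07 with the change. With coding length and GC content adjusted for over all genes, 34 members were called lower and 2 higher (Mak16 and Nop16), where 5545 of 9221 genes (60.1%) were called lower and 1640 higher, and the members' median lay -0.23 from that of all genes. Nip7 and Rsl24d1, called higher without this adjustment, were among the members called lower with it. The part of length in these changes was not tested beyond this adjustment.

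**Figure D5:**
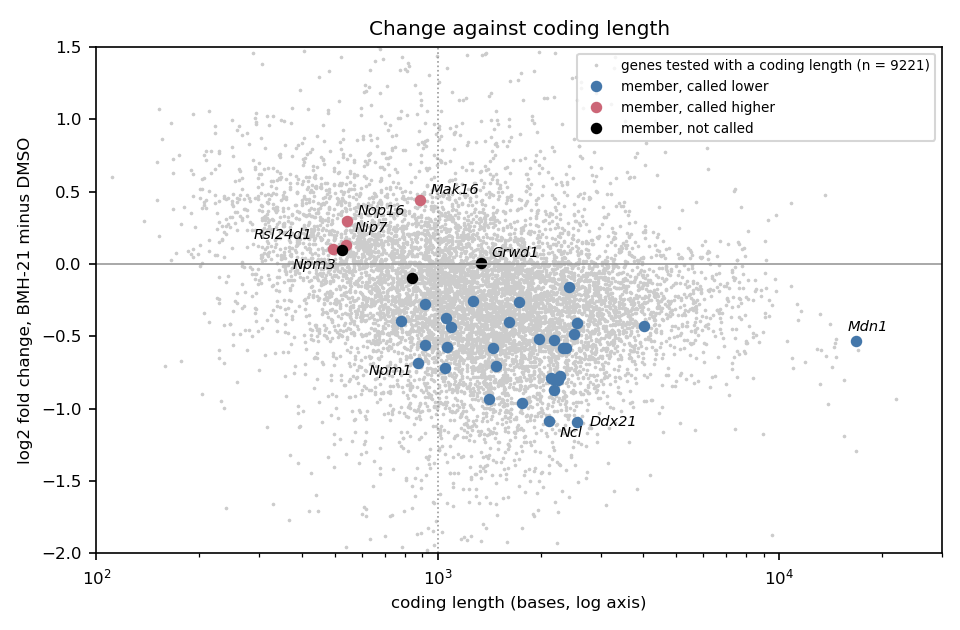
Log2 fold change (BMH-21 minus DMSO, log2(FPKM + 1) scale, drawn from -2 to 1.5) against coding length in bases (log axis) for the 38 members, coloured by their limma call, over the genes tested with a coding length (grey), with a dotted line at 1000 bases. The 4 members called higher sit under 1000 bases, and 27 of the 28 longer members were called lower.

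Other genes of the same pathway were called in proportions close to those of the members. Of 48 such genes present, 46 passed the filter, of which 37 (80.4%) were called lower, 6 (13%) higher and 3 were not called. Of all genes tested, 58.4% were called lower and 19.9% higher. The median change was -0.49 over these pathway genes and -0.23 over all genes tested. Under median-ratio scaling 30 of these pathway genes were called lower and 7 higher, where 3442 of all genes were lower and 3724 higher. Of 24 other factors that assemble the pre-60S particle, 19 fell and 3 rose. Nop53, which recruits the exosome to the particle, fell most, from 40.6 to 17.6 FPKM (-1.16, limma adjusted p = 7.77e-09), and Nol12, a nucleolar RNA-binding protein, rose most, from 14.5 to 18.0 FPKM (0.29). The rixosome, the complex around Las1l and Nol9, fell in 3 of 4 genes. Pelp1 fell from 6.07 to 2.85 FPKM (-0.88), and Senp3, a SUMO protease of the nucleolus, rose from 71.6 to 92.9 FPKM (0.37).

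Nuclear export and cytoplasmic maturation factors fell in 9 of 10 genes, led by Zfp622, a release factor for the late particle, from 7.83 to 3.73 FPKM (-0.90). All 4 nucleases and exosome partners that trim ITS2 fell, led by Exosc10 from 6.70 to 3.48 FPKM (-0.78). These lists are small, and 58.4% of all genes tested were called lower. The 4 ribosomal proteins handled by members were divided. Rpl3, the client of Grwd1, fell from 218 to 101 FPKM (-1.10, limma adjusted p = 7.3e-07), while Grwd1 was not called. Rpl5, part of the 5S ribonucleoprotein, fell from 232 to 170 FPKM (-0.45), and Rpl11, its companion there, rose from 380 to 441 FPKM (0.21). Rpl24, whose place Rsl24d1 holds, rose from 538 to 597 FPKM (0.15). Values of ribosomal protein genes are uncertain, since pseudogenes close to them in sequence could share their reads. Among the members, Npm3 and Nsa2 have pseudogenes by name (Npm3-ps1 and Nsa2-ps2), and this limit could apply to them as well.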

How the data were processed

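RNA from polysome fractions was sequenced in 6 libraries, 3 DMSO and 3 BMH-21, grouped by sample title. The table deposited by the authors holds values read as FPKM from their range and column totals, since the labels name no unit. The submitters' processing notes name the mm10 build and the tools HISAT2, SAMtools and Trimmomatic 0.38. For the counter and the annotation, nothing is given in the sources used here. Per the labels' protocols, libraries were enriched with oligo-dT beads; DMSO replicate 2 is labelled polyA RNA and the others total RNA.

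The 9748 of 19233 genes that reached 1 FPKM in 3 or more samples were fitted on log2(FPKM + 1) in limma 3.58.1 (R 4.3.3), using an intensity trend, and p-values were adjusted by Benjamini-Hochberg at 0.05. Ratios were tested by exact permutation. Between 75.3% and 77.3% of low values of single-transcript genes lay within 0.01 of a whole number of at most 20 reads, too few to recover counts, so depth is an estimate and no count model was run. Tested on simulated data with 50 genes changed at each size among 9748, the fit recovered 46% of 1.2-fold and 100% of 1.5-fold changes, and called 6 of 9548 unchanged genes. Few genes changed in that simulation, evenly up and down, whereas 58.4% of genes tested were called lower in the data. It therefore cannot give the rate of false calls under such a wide shift. Gene positions and coding lengths came from GENCODE M21 on GRCm38, the assembly of mm10; 16 members share exon bases with another gene.

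The members and lists were chosen with earlier results of these data known. Every member is named with both means and its change. Per-sample values are given for the 4 largest called falls, members called higher or not called, and 16 members named in the plan, with Noc3l added after its values were seen. Of other pathway genes, each list's largest called fall and rise are named, and Rpl5 and Rpl24 were added after their values were seen. Alternatives covered the pseudocount, the filter, scaling, the trend, the replicate block, length and GC, and leaving out each library.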

Additional observations from a re-analysis of the deposited data

How the results depend on the processing

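Of 16 alternative settings, 23 members kept their call in every setting that tested them (21 lower, 2 higher). The 4 members called higher became 7 under median-ratio scaling, 7 under upper-quartile scaling and 2 with equal column totals. All genes called higher then numbered 3724, 3873 and 1389, against 1938 in the main fit. With coding length and GC adjusted for, 2 members and 1640 of 9221 genes were called higher, and 3 other pathway genes instead of 6. Nip7, Rsl24d1, Npm3 and Rrp15 were called lower under that adjustment. The members' median change of -0.52 became -0.60 with a pseudocount of 0.1, -0.27, -0.25 and -0.28 under median-ratio, upper-quartile and quantile scaling, -0.61 with equal totals, -0.45 with length and GC adjusted for, and -0.54 to -0.49 leaving out each library in turn. Members called lower numbered 30 to 32 on leaving out a library, where 55.9% to 57.4% of all genes were called lower. Without the filter the members' median lay -0.49 from that of 19233 genes. Signs turned for Npm3 (-0.024 with equal totals, -0.11 with length and GC), Wdr12 (0.079, quantile), Noc3l (0.028, 0.043 and 0.11 under median-ratio, upper-quartile and quantile scaling), Ebna1bp2 (0.011 and 0.034 under the first pair of these), Nip7 (-0.092, length and GC), Rrp15 (0.19, 0.21 and 0.049 under median-ratio, upper-quartile and quantile scaling), Rsl24d1 (-0.020, equal totals; -0.14, length and GC) and Grwd1 (-0.10, equal totals; -0.014 to 0.042 leaving out a library). The Gnl3 to Gnl3l log2 ratio became -0.14 with 1 FPKM added and -0.070 to 0.069 leaving out a library, and that of Las1l to Nol9 became 0.21 with 1 FPKM added and -0.040 to 0.13 leaving out a library. The cause of these changes was not tested. With a replicate block 30 members were called lower and 3 higher, where 57.5% of all genes were called lower and 1894 genes higher. The calls of Rsl24d1 (limma adjusted p = 0.0632) and Noc3l (0.0585) were then lost. Deviations from the group mean correlated at -0.11, -0.09 and -0.06 between same-numbered samples. No pairing thus shows in the values, which does not settle how the samples were handled. Depth limits the members near 1 FPKM. By the length of 1 transcript, Las1l, Noc3l and Gnl3l rest on an estimated 65, 104 and 115 reads in their lowest library. Over all annotated exons the estimates for Las1l and Gnl3l would be higher, and that for Noc3l the same.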
